A study of Mus musculus with 21 samples.

Results

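Transcript levels of 9 genes of MHC class II antigen presentation were followed in mouse colon by RNA sequencing. The genes are H2-Aa, H2-Ab1, H2-Eb1, H2-DMa, H2-DMb1, H2-Oa, H2-Ob, Cd74 and Ciita, and they were taken by gene symbol from a count table of 24062 genes. All 9 were in the table, and all 9 were among the 15936 genes that passed the filter on low counts. The 21 libraries fall into 7 groups of 3. Wild-type C57BL/6 mice gave 4 groups, namely male normal colon, male tumour, female normal colon and female tumour. C57BL/6 mice with the knock-in App NL-G-F gave male normal colon, male tumour and female normal colon. In this allele App, the gene of the amyloid precursor protein, carries mutations linked to Alzheimer's disease. Tumours were raised with AOM/DSS, which pairs the carcinogen azoxymethane with dextran sulfate sodium, an agent that injures the colon lining. The labels call the normal groups untreated, whereas the series design also speaks of normal tissue taken beside tumours. Ages, zygosity of the knock-in allele and the number of animals behind each library are not in the labels, so the p-values below measure the spread between libraries, which may in part be technical. The question of the series is how the App mutant background alters the outcome of AOM/DSS in each sex.

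MHC class II molecules carry peptides from endocytosed protein to the cell surface, where CD4+ T cells read them. An alpha and a beta chain (H2-Aa with H2-Ab1, or an E alpha chain with H2-Eb1) assemble in the endoplasmic reticulum on the invariant chain encoded by Cd74, which fills the groove and sorts the complex to endosomes. There proteases trim the invariant chain, H2-DM (H2-DMa with H2-DMb1) exchanges the remnant for antigenic peptide, and H2-O (H2-Oa with H2-Ob) restrains H2-DM, chiefly in B cells. Ciita is the coactivator that switches on most of these genes through the factors bound at their promoters. B cells, dendritic cells and macrophages express the pathway constitutively, and interferon gamma induces it in other cells, colon epithelium among them.

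In the GENCODE annotation of GRCm38, 7 of the genes lie on chromosome 17 between position 34092340, the start of H2-Oa, and position 34316674, the end of H2-Eb1. Cd74 and Ciita lie elsewhere. Class II promoters are known for an X box followed by a Y box, and the RefSeq promoter windows on GRCm38.p6, from 250 bases before each start to shortly after it, were searched on both strands for the letters GNAAC of the X core followed 15 to 45 bases later by the Y box TGATTGG. Of the 6 members with an entry, 5 held the pair, namely H2-Aa, H2-Eb1, H2-DMb1, H2-Oa and H2-Ob, with 23 to 26 bases between its parts. The 2 entries of H2-DMa held neither the Y box nor the pair. H2-Ab1, Cd74 and Ciita had no entry and were not searched. Among all 32851 promoter windows 7.82% held the Y box and 0.852% the pair. A match describes letters and is not a measured binding site. The pair is shown for both chain types and for H2-Ob, the member with the largest change, with the X core and the Y box in capitals. The windows are chr17:34287857-34287914 on the minus strand for H2-Aa, chr17:34305766-34305822 on the plus strand for H2-Eb1 and chr17:34238808-34238862 on the plus strand for H2-Ob.
H2-Aa: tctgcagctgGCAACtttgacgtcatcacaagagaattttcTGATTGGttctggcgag
H2-Eb1: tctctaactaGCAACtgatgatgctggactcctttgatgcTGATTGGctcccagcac
H2-Ob: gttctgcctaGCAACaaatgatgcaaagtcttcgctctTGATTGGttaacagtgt
The order of the motifs and the limits of 15 to 45 bases were set by the search, so the shared order is not a result. Within those limits the motifs stand 26 bases apart in H2-Aa, 25 in H2-Eb1 and 23 in H2-Ob.

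Library totals ran from 3414123 to 26174008 counts, so that 3 counts, taken here as the smallest measurable amount, equal between 0.127 and 0.873 CPM (counts scaled by library size and composition). No replicate pair agreed within counting noise, with a chi-square per degree of freedom of 6.6 or more. Epcam, an epithelial surface protein, averaged between 932 and 1387 CPM in every group. Of 10 colon epithelium genes 8 were lower and 1 higher in wild-type male tumours, 1 and 1 in knock-in male tumours, and 9 and 1 in wild-type female tumours. In the same order, 35.7%, 20.4% and 49.1% of all tested genes were called. The summed level of the 10 genes was 7198 to 14944 CPM over the tumours and 12384 to 29158 CPM over the normal libraries. Wild-type female normal libraries were the lowest in base composition. Their level of genes of high GC content relative to genes of low GC content was -0.56 to -0.33 log2 units from the average library. The other 18 libraries lay between -0.31 and 0.63. These ranges nearly touched, with knock-in male tumour replicate 1 at -0.31.

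Per kilobase of transcript, Cd74 had the highest group mean of the 9 genes in every group and H2-Aa the next. In knock-in male normal colon Cd74 averaged 388 CPM per kb, H2-Aa 159, H2-Ab1 111 and H2-Eb1 89.7. The peptide editors lay far below, with 13.3 CPM per kb for H2-DMb1 and 9.29 for H2-DMa, and Ciita stood at 7.53. H2-Ob averaged 5.31 and H2-Oa 1.71 CPM per kb. H2-Oa was the lowest of the 9 in every group except wild-type female tumours, where H2-Ob averaged 0.0743 CPM per kb and H2-Oa 0.136. In bulk tissue a lower level can mean fewer cells of a type or less RNA per cell, and these cannot be told apart.

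**Figure D1:**
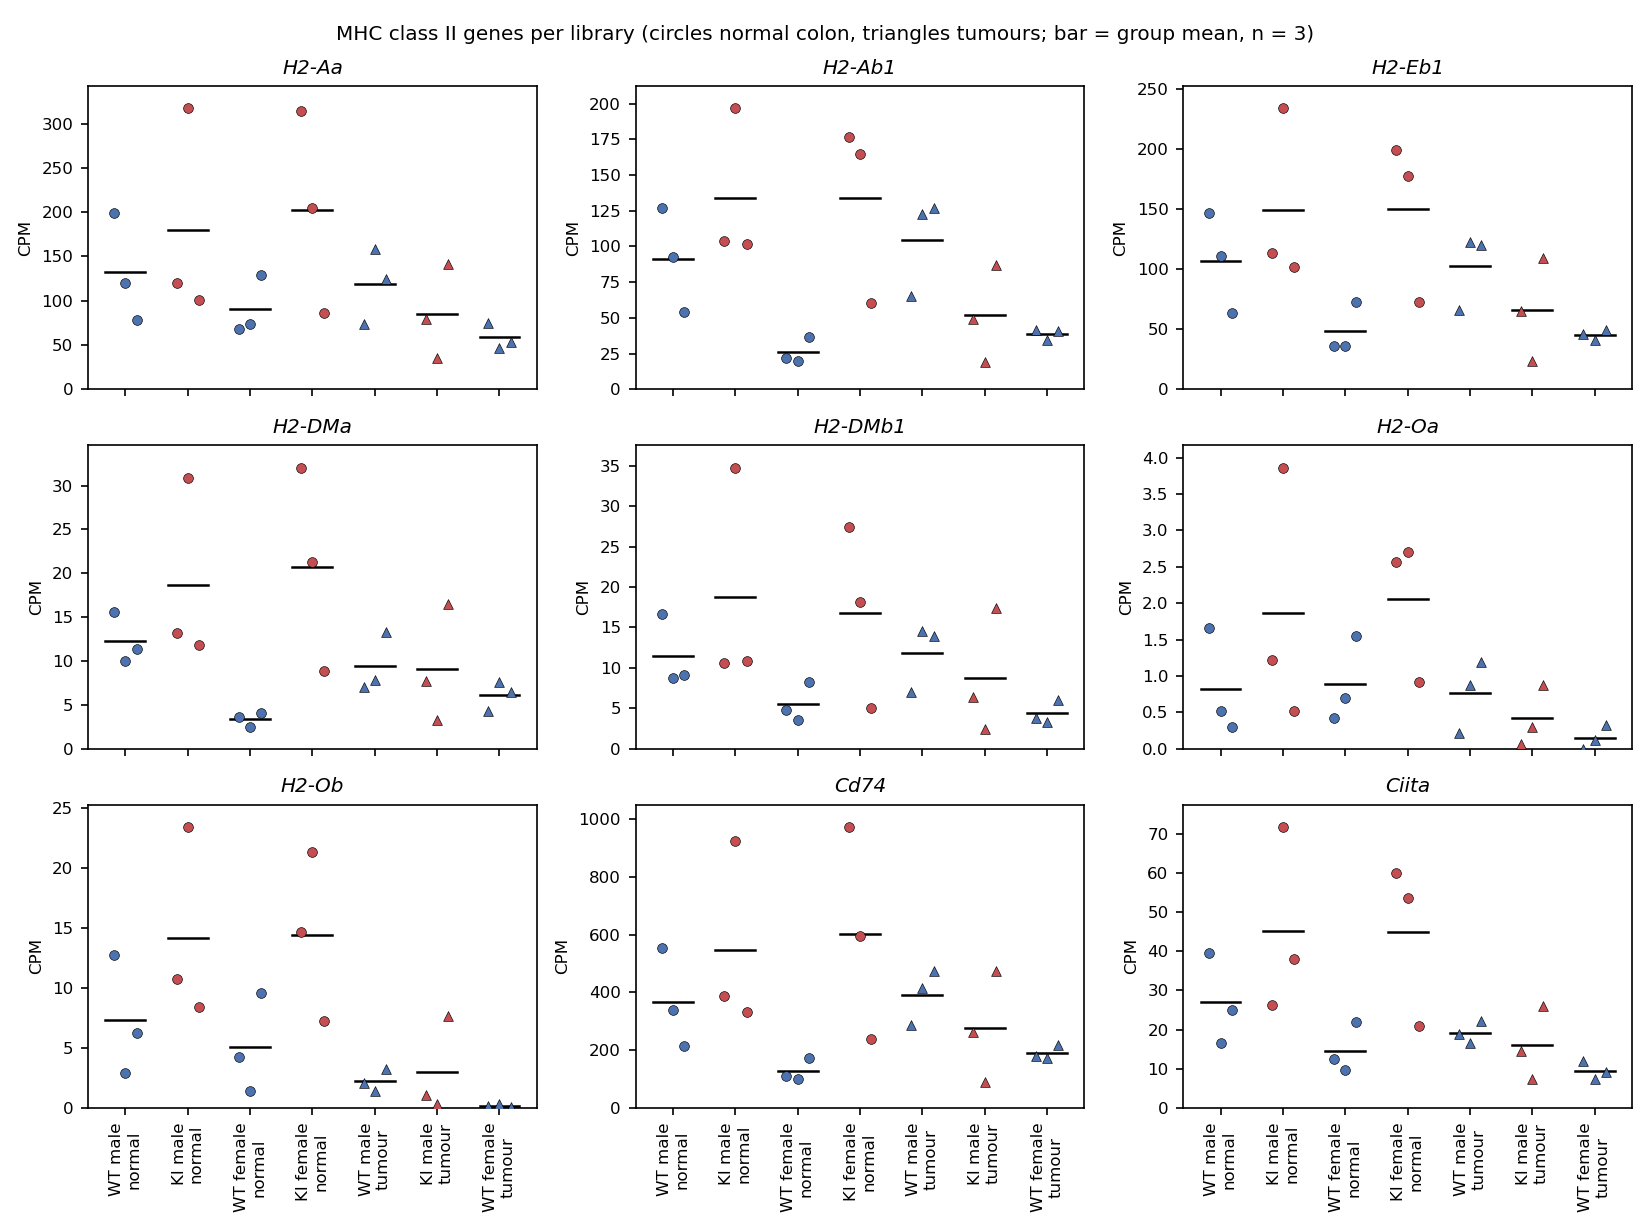
Level of each of the 9 genes in every library, in CPM on a linear axis from 0, by group. Circles are normal colon, triangles tumours, blue wild-type, red knock-in, and bars the mean of 3 libraries. The spread inside the normal groups is wide, wild-type female normal colon is low for H2-Ab1, H2-DMa and Cd74, and H2-Ob is near 0 in wild-type female tumours.

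The invariant chain, the most abundant of the 9 genes, serves to show the spread within groups, though some other members spread more widely. Cd74 measured 110.3, 102 and 175 CPM in the 3 wild-type female normal libraries and 972, 596 and 240.1 CPM in the 3 knock-in female normal libraries. In males the normal values were 553, 339 and 214 CPM in wild-type and 389, 923 and 331 CPM in knock-in mice. Knock-in female normal colon therefore lay above wild-type female normal colon without overlap, while the male groups overlapped, and 1 knock-in male library was nearly as high as the highest female one. In tumours Cd74 was at 287, 416 and 475 CPM in wild-type males, 262, 90.6 and 475 CPM in knock-in males, and 181, 173 and 217 CPM in wild-type females. The lowest of the 21 values, 90.6 CPM, belonged to knock-in male tumour replicate 2. By group mean Cd74 was highest in normal colon of knock-in females (603 CPM ± 366, SD, n = 3), followed in order by knock-in male normal colon, wild-type male tumour, wild-type male normal colon, knock-in male tumour, wild-type female tumour and wild-type female normal colon (129 CPM ± 39.8, SD, n = 3), and each neighbouring pair in that order overlapped. A knock-in normal group had the highest mean for all 9 genes. Ranked in the same way, the only neighbours without overlap were wild-type female tumour above wild-type female normal colon for H2-DMa and wild-type male above wild-type female tumour for H2-Ob.

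The genotype comparison in female normal colon held the most changes. Of the 9 members, 5 were higher in knock-in than in wild-type mice and none lower, against a background of 16.0% of all tested genes called (8.97% higher). The members' median log2 difference was 1.64, beside 0.02 over all tested genes. Tests are edgeR's quasi-likelihood F test, with p adjusted by Benjamini-Hochberg over all tested genes and a threshold of 0.05.

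Among the chains, H2-Ab1, the beta chain of the A molecule, was at 22.1, 19.8 and 36.5 CPM in wild-type and 177, 165 and 60.4 CPM in knock-in female normal colon, without overlap. Its log2 fold change was 2.37 (SE 0.53, edgeR adjusted p = 0.00801). H2-Eb1, the beta chain of the E molecule, measured 36.2, 35.8 and 72.6 CPM against 199.8, 177.5 and 72.8 CPM, so that the groups nearly touched, and rose by 1.65 log2 units (SE 0.53, edgeR adjusted p = 0.0462). H2-Aa, the alpha chain, measured 68.6, 73.7 and 129 CPM against 315, 205 and 85.97 CPM. These overlapped, and its log2 difference of 1.17 (95% interval 0.03 to 2.31) did not pass (edgeR adjusted p = 0.186). Cd74 rose by 2.23 log2 units (SE 0.60, edgeR adjusted p = 0.0214). The E alpha gene was present only under the pseudogene symbol H2-Ea-ps. It was at or under 3 counts in every library of all groups except wild-type male normal colon. The rise of H2-Eb1 is therefore one of transcript only and is not read as a rise of E molecules.

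Of the peptide editor H2-DM, the alpha chain changed most. H2-DMa stood at 3.64, 2.51 and 4.03 CPM in wild-type and at 32.02, 21.2 and 8.80 CPM in knock-in female normal colon, without overlap, a rise of 2.60 log2 units (SE 0.57, edgeR adjusted p = 0.00611). Its partner H2-DMb1 had 4.78, 3.48 and 8.21 CPM against 27.4, 18.1 and 5.05 CPM, which overlapped, and a log2 difference of 1.64 (95% interval 0.27 to 3.01, edgeR adjusted p = 0.122). Neither chain of H2-O passed, with log2 differences of 1.33 for H2-Oa and 1.53 for H2-Ob. The coactivator Ciita measured 12.4, 9.62 and 21.8 CPM against 59.9, 53.6 and 20.8 CPM. One knock-in library fell inside the wild-type range, and Ciita rose by 1.63 log2 units (SE 0.50, edgeR adjusted p = 0.0372).

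The low knock-in library was the same one throughout: the library called b, whose column header is shared with another library of its group, was the lowest of its group for all 9 genes. H2-Ab1 and H2-DMa passed under every alternative run, with edgeR adjusted p-values of up to 0.0497 for H2-Ab1 and 0.0404 for H2-DMa when single libraries were left out. H2-Eb1, Cd74 and Ciita lost their calls when any of wild-type female normal replicates 1 and 2 or knock-in female normal replicates 1 and a was left out, with edgeR adjusted p-values between 0.0597 and 0.168. The same 3 calls were lost in a fit of the compared groups alone (0.0515 to 0.0731). With an offset for GC content and length, H2-Eb1 (edgeR adjusted p = 0.0580) and Ciita (0.0942) also lost theirs.

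Marker genes moved in the same comparison, where 16.0% of all tested genes were called (8.97% higher). Of 8 smooth muscle genes 4 were higher in knock-in female normal colon, and their summed level was 6817 to 9665 CPM against 1958 to 4579 CPM. Of 11 dendritic cell genes 2 were higher, with sums of 44.9 to 69.4 CPM against 26.6 to 44.1 CPM. Of 11 macrophage genes 2 were higher (388 to 508 CPM against 289 to 459 CPM), and of 5 pan-leukocyte genes 1 was higher (105 to 236 CPM against 86.8 to 174 CPM). Of 10 colon epithelium genes 3 were lower and 0 higher, with sums of 13412 to 13813 CPM against 17748 to 29158 CPM, without overlap. Of 5 plasma cell genes 1 was lower (322 to 364 CPM against 366 to 571 CPM). No B cell gene of 12 passed, with sums of 98.0 to 214 CPM against 20.9 to 117 CPM. Itgax, the CD11c integrin chain of dendritic cells and some macrophages, averaged 7.98 CPM ± 1.54 in wild-type and 17.0 CPM ± 4.54 in knock-in females (SD, n = 3) and rose by 1.10 log2 units (edgeR adjusted p = 0.0347). None of the genes of these 7 lists was at 0 in all libraries of either group. The part of these cell types in the class II difference was not tested.

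In male normal colon 0 of 9 members passed between genotypes, where 0.0126% of all tested genes were called, and 0 members had an unadjusted p under 0.05. All 9 differences were positive, from 0.44 log2 units for H2-Aa to 1.11 for H2-Oa, with a median of 0.60. For H2-Ab1 the values were 127, 92.9 and 54.0 CPM in wild-type and 104, 197 and 102 CPM in knock-in males, which overlapped, and the log2 difference of 0.55 had a 95% interval from -0.42 to 1.53. For H2-DMa the log2 difference was 0.60 with an interval from -0.40 to 1.60. The difference between the female and male genotype effects passed for 0 of 9 members in edgeR's interaction test (2.54% of all tested genes called), with 2 members at an unadjusted p under 0.05. It was largest for H2-DMa, at 2.002 log2 units (95% interval 0.53 to 3.48, edgeR adjusted p = 0.171), and for H2-Ab1, at 1.82 (0.41 to 3.22, edgeR adjusted p = 0.196). A difference in genotype effect between the sexes was thus not established for any member.

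**Figure D2:**
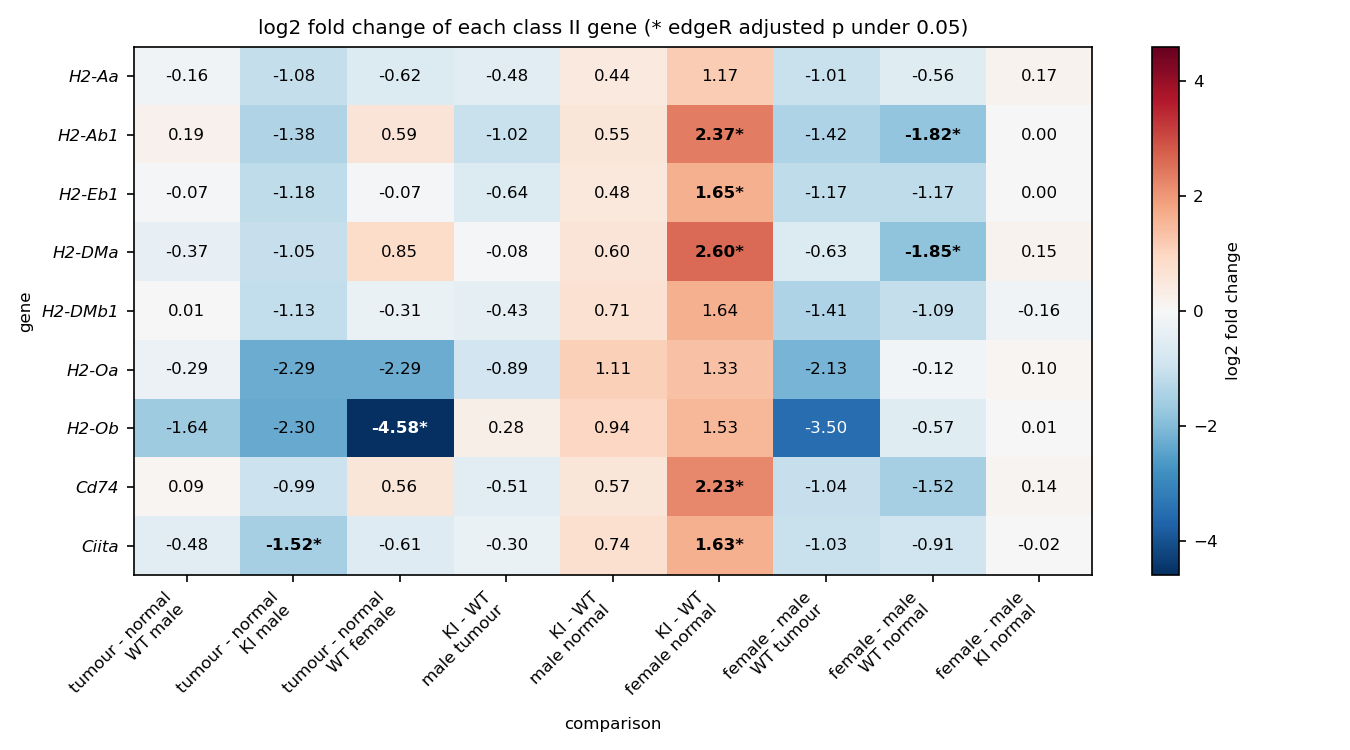
Log2 fold change of each gene (rows) in the 9 comparisons of pairs of groups (columns), coloured from blue (lower) to red (higher). Asterisks mark an edgeR adjusted p under 0.05, and they stand on 5 genes for knock-in against wild-type female normal colon, 2 for female against male wild-type normal colon and 1 each for tumours of knock-in males and of wild-type females.

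Sex was compared in wild-type normal colon. Of the 9 members, 2 were lower in females than in males, where 15.9% of all tested genes were called (10.2% lower), and all 9 differences were negative with a median of -1.09. H2-Ab1 fell by 1.82 log2 units (SE 0.52, edgeR adjusted p = 0.0283), from 127, 92.9 and 54.0 CPM in males to 22.1, 19.8 and 36.5 CPM in females, without overlap. H2-DMa was at 15.6, 9.96 and 11.3 CPM in males and 3.64, 2.51 and 4.03 CPM in females, also without overlap, and fell by 1.85 log2 units (SE 0.56, edgeR adjusted p = 0.0334). Cd74 had a log2 difference of -1.52 (95% interval -2.67 to -0.37) and did not pass (edgeR adjusted p = 0.0899). It passed with DESeq2's Wald test (adjusted p = 0.0400), with limma voom (0.0213) and in an edgeR fit of the compared groups alone (0.0398). This comparison shares its female libraries with the genotype comparison above. Both calls were lost with the GC and length offset, at edgeR adjusted p = 0.0594 for H2-Ab1 and 0.0663 for H2-DMa, and when single libraries were left out, as given in the closing section. Itgax was lower in females as well, by 1.16 log2 units (edgeR adjusted p = 0.0271), and 2 of 8 smooth muscle genes were lower, with sums of 1958 to 4579 CPM in females and 2853 to 9566 CPM in males. The summed pan-leukocyte level was 86.8 to 174 CPM in females and 79.3 to 191 CPM in males, and 1 of the 5 genes was lower in females. Of 11 dendritic cell genes 2 were lower (26.6 to 44.1 CPM against 37.0 to 73.2 CPM), and of 11 macrophage genes 1 was lower (289 to 459 CPM against 326 to 473 CPM). Other lists went differently. No B cell gene of 12 passed, 1 of 5 plasma cell genes was higher in females and 0 lower. Of 12 tested genes of the interferon gamma axis 2 were higher and 0 lower. The part of all these genes in the result was not tested.

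In knock-in normal colon 0 of 9 members differed between the sexes (0.584% of all tested genes called), with 0 at an unadjusted p under 0.05 and log2 differences between -0.16 and 0.17. The 95% interval for H2-Ab1 was -0.97 to 0.97 log2 units. For H2-DMa it was -0.84 to 1.14.

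Tumours were compared with normal colon in 3 settings, and few members passed. With 3 libraries a group, a member that did not pass is not shown to be unchanged. In wild-type males 0 of 9 members passed, where 35.7% of all tested genes were called, and 0 had an unadjusted p under 0.05. The chains and the invariant chain lay close to their normal level: the log2 difference was 0.19 for H2-Ab1 (95% interval -0.79 to 1.17), -0.07 for H2-Eb1, -0.16 for H2-Aa and 0.09 for Cd74 (-1.03 to 1.21). H2-Ob was the member furthest from 0, with 12.8, 2.92 and 6.27 CPM in normal colon and 2.09, 1.46 and 3.22 CPM in tumours. These overlapped, and its log2 difference of -1.64 (SE 0.88) had an edgeR adjusted p of 0.160.

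In wild-type females 1 of 9 members passed, where 49.1% of all tested genes were called. H2-Ob, the beta chain of the H2-DM inhibitor, measured 4.23, 1.39 and 9.60 CPM in normal colon and 0.136, 0.351 and 0.109 CPM in tumours, without overlap. The tumour values rest on 1, 3 and 1 counts. Pooled over libraries, 172 counts in normal colon faced 5 in tumours, a ratio of normal to tumour of 23.2 after scaling (95% exact binomial interval 9.74 to 72.2, which covers counting error only). The fitted log2 fold change was -4.58 (SE 1.27, edgeR adjusted p = 0.00686), and H2-Ob passed in all 11 alternatives and whichever library was left out. Its partner H2-Oa was at 0.423, 0.697 and 1.55 CPM in normal colon and at 0, 0.117 and 0.326 CPM in tumours, without overlap, and did not pass (edgeR adjusted p = 0.121). With 25 pooled counts against 4, the scaled ratio of normal to tumour was 4.21 (95% interval 1.45 to 16.6).

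None of the other 7 members passed in these female tumours, and differences between members were not tested. H2-DMa was at 4.35, 7.60 and 6.42 CPM in tumours, all above the 2.51 to 4.03 CPM of normal colon, with a log2 difference of 0.85 (95% interval -0.28 to 1.98, edgeR adjusted p = 0.237). H2-Ab1 measured 41.6, 34.6 and 41.0 CPM, overlapping normal colon, with a log2 difference of 0.59, and Cd74 had one of 0.56. The log2 difference was -0.62 for H2-Aa, -0.61 for Ciita, -0.31 for H2-DMb1 and -0.07 for H2-Eb1, so that 3 of 9 members had positive values. The median over the 9 members was -0.31.

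In knock-in males 1 of 9 members passed, where 20.4% of all tested genes were called, although all 9 differences were negative with a median of -1.18. Ciita measured 26.2, 71.7 and 38.0 CPM in normal colon and 14.5, 7.39 and 25.9 CPM in tumours, with the highest tumour just below the lowest normal library. It fell by 1.52 log2 units (SE 0.49, edgeR adjusted p = 0.0396). H2-Ob had 10.7, 23.4 and 8.39 CPM in normal colon against 1.09, 0.355 and 7.63 CPM in tumours, a log2 difference of -2.30 (SE 0.85, edgeR adjusted p = 0.0649). H2-Ab1 had 104, 197 and 102 CPM against 49.1, 19.5 and 87.2 CPM, a log2 difference of -1.38 (edgeR adjusted p = 0.0649). Neither pair of groups overlapped. For every member except H2-Oa, knock-in male tumour replicate 2 was the lowest and replicate 3 the highest of the group, and replicate 3 carries a late library number, 154, beside 133 and 136. Without replicate 3, 6 of 9 members passed, and the share of all tested genes called in that fit is not given here. The summed pan-leukocyte level was 161 to 303 CPM in normal colon and 72.8 to 145 CPM in these tumours, with 1 of 5 genes lower and none at 0 in all libraries of either group, and its part in the difference was not tested. The Ciita call was lost without knock-in male normal replicate 2 or 3 or tumour replicate 1 or 2 (edgeR adjusted p from 0.0713 to 0.150), with no low-count filter (0.0605), in a fit of the compared groups alone (0.150), under limma (0.163) and with the offset for GC content and length (0.0715).

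Between the 3 tumour groups no member passed. Knock-in against wild-type male tumours gave 0 of 9 (14.5% of all tested genes called, 0 members at an unadjusted p under 0.05), with log2 differences from -1.02 for H2-Ab1 to 0.28 for H2-Ob. Female against male wild-type tumours gave 0 of 9 (0.860% called), with all 9 differences negative and a median of -1.17. Of these, H2-Ab1, H2-Eb1 and H2-Ob had an unadjusted p under 0.05. H2-Ob had 5 pooled counts in female and 69 in male tumours, a scaled ratio of male to female of 12.3 (95% interval 5.02 to 39.1), and an edgeR adjusted p of 0.156. It passed with the DESeq2 Wald test (adjusted p = 0.0353). In a fit of these 2 groups alone 6 of the 8 members tested passed, and the share of all tested genes called in that fit is not given here. The interaction of tumour effect with genotype in males (1.51% called) and with sex in wild-type mice (1.12% called) passed for 0 of 9 members each, with 1 member, H2-Ab1, and 0 members at an unadjusted p under 0.05. DESeq2 and limma likewise called 0 members in each comparison where edgeR called 0, except in female against male wild-type tumours, where each called 1. For H2-Ob the sex interaction was -2.94 log2 units (95% interval -6.12 to 0.25, edgeR adjusted p = 0.459), so its fall was not shown to differ between the sexes.

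The B cell genes were set beside H2-Ob, which passed in wild-type female tumours (edgeR adjusted p = 0.00686) and not in knock-in male (0.0649) or wild-type male tumours (0.160). Of 12 B cell genes 8 were lower in wild-type female tumours, 7 in knock-in male tumours and 0 in wild-type male tumours, beside 24.0%, 9.97% and 19.3% of all tested genes lower. The summed level of the list was 11.1 to 18.2 CPM in wild-type female tumours against 20.9 to 117 CPM in normal colon, and 10.2 to 70.8 CPM in knock-in male tumours against 86.5 to 270 CPM. In wild-type males it was 33.8 to 42.9 CPM against 22.8 to 159 CPM. In wild-type female tumours Pax5, Blk and Fcrla were at or under 3 counts in every library. The part of B cells in the H2-Ob difference was not tested.

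**Figure D3:**
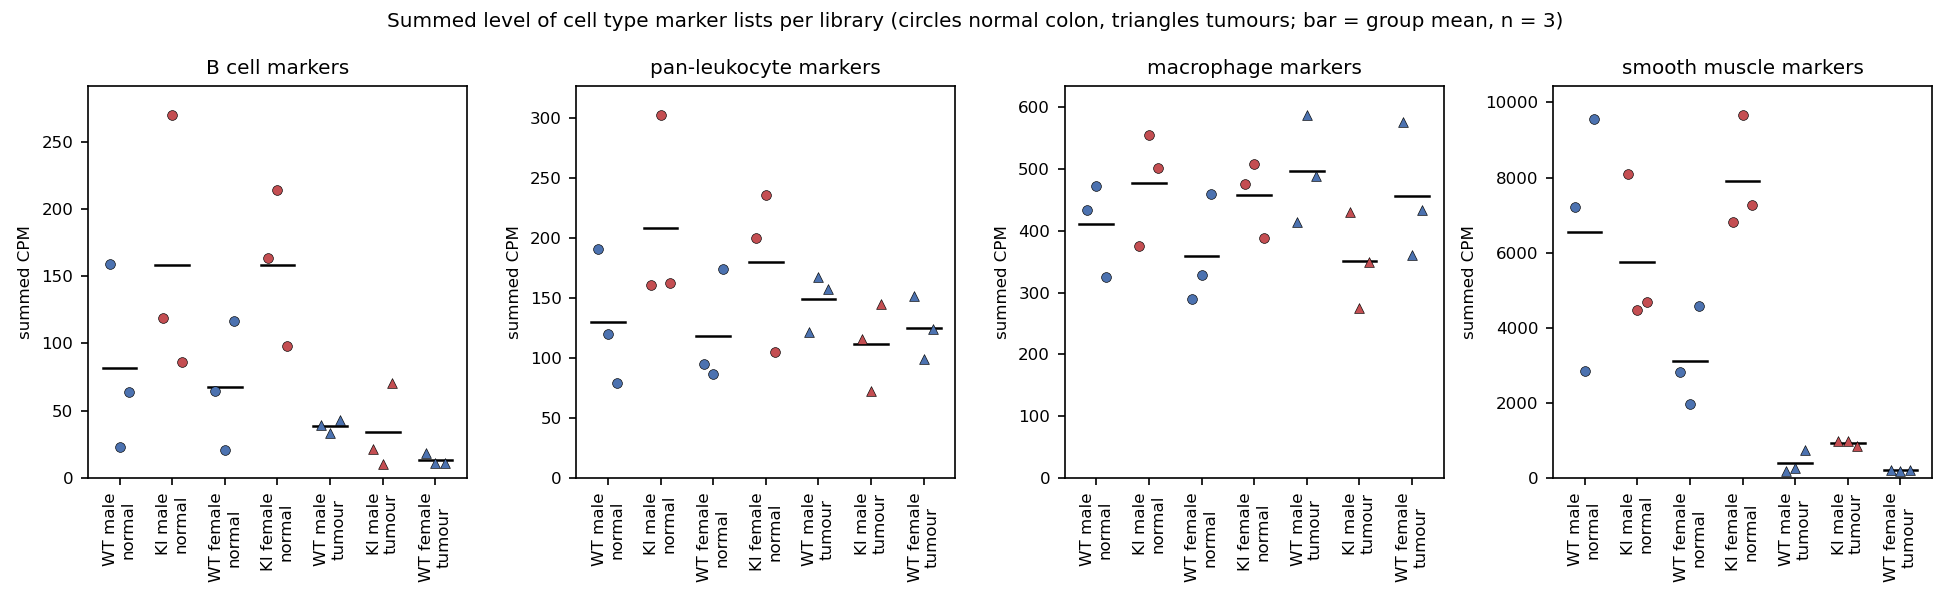
Summed level of 4 marker lists in each library, in CPM on linear axes from 0, by group, with circles for normal colon, triangles for tumours and bars for the mean of 3 libraries. B cell sums are below 71 CPM in all 9 tumours, pan-leukocyte sums overlap between normal colon and tumours in wild-type mice and not in knock-in males, and smooth muscle sums fall in every tumour group.

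Genes of other cell types were also called in tumours. The shares of all tested genes called were 35.7% in wild-type male, 20.4% in knock-in male and 49.1% in wild-type female tumours. All 8 smooth muscle genes were lower in each of the 3 tumour comparisons, with sums of 178 to 993 CPM over the 9 tumours and 1958 to 9665 CPM over the 12 normal libraries. Of 5 pan-leukocyte genes 1 was lower in knock-in male tumours, 1 higher in wild-type female tumours and 0 passed in wild-type male tumours. Of 11 dendritic cell genes 2 were higher and 0 lower in wild-type male tumours, 0 and 2 in knock-in male tumours, and 2 and 1 in wild-type female tumours. Of 11 macrophage genes the counts were 2 and 3, 0 and 0, and 3 and 3 in the same order. Itgax rose in wild-type male tumours by 0.91 log2 units (edgeR adjusted p = 0.0354) and in wild-type female tumours by 1.28 (edgeR adjusted p = 0.00466). Its log2 difference in knock-in male tumours was -0.43 (edgeR adjusted p = 0.350). Itgax is 1 of the 11 dendritic cell genes and does not stand for that list. The list's median log2 difference was 0.14 in wild-type male, -0.11 in wild-type female and -0.76 in knock-in male tumours. Of the 11 genes, 7, 5 and 1 had positive values in that order. The part of these cells in the levels of the class II genes was not tested.

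Within groups, libraries that were high for one member were high for most. Each library's deviation from its group mean in log2 CPM was correlated between genes over the 21 libraries, as a description, since the libraries share composition and depth. H2-Ab1 and H2-Eb1 had a Pearson r of 0.992, and H2-Aa, H2-Ab1, H2-Eb1, H2-DMb1 and Cd74 had values of 0.93 to 0.99 with each other. H2-Oa and H2-Ob followed less closely, with r between 0.58 and 0.75 for H2-Oa and between 0.59 and 0.84 for H2-Ob towards the other members. H2-Oa rests on 0 to 61 counts per library.

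The genes most like each member, among 11842 others with a mean of at least 50 counts, separated H2-Ob from the chains. Among its 5 nearest genes were Cd79a (r = 0.923) and Cd79b (r = 0.921), the signalling chains of the B cell receptor, Cd22, an inhibitory B cell receptor, and Spib, a transcription factor of B cells. Over the 12 B cell genes its median r was 0.912, and the next highest median with that list was 0.79, for Ciita. The 5 nearest genes of H2-Ab1 were H2-Eb1, Cd74, H2-Aa, H2-DMb1 and Wdfy4, and H2-Aa had 3 members beside Lcp1, a leukocyte actin bundler, and Nlrc5, the coactivator of class I genes (r = 0.938). H2-Eb1 had Il10ra, an interleukin receptor chain, among its 5, and H2-DMa had Ido1 and Dnase1l3. Ciita was nearest to Gbp4, an interferon-induced GTPase (r = 0.899), followed by Wdfy4, H2-DMb1, Ptprc, the leukocyte antigen CD45, and Fgr. For H2-Oa the list was Rasgrp3, Hdac9, Gimap6, Mef2c and Apbb1ip, with r from 0.806 to 0.866 and no member among them.

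**Figure D4:**
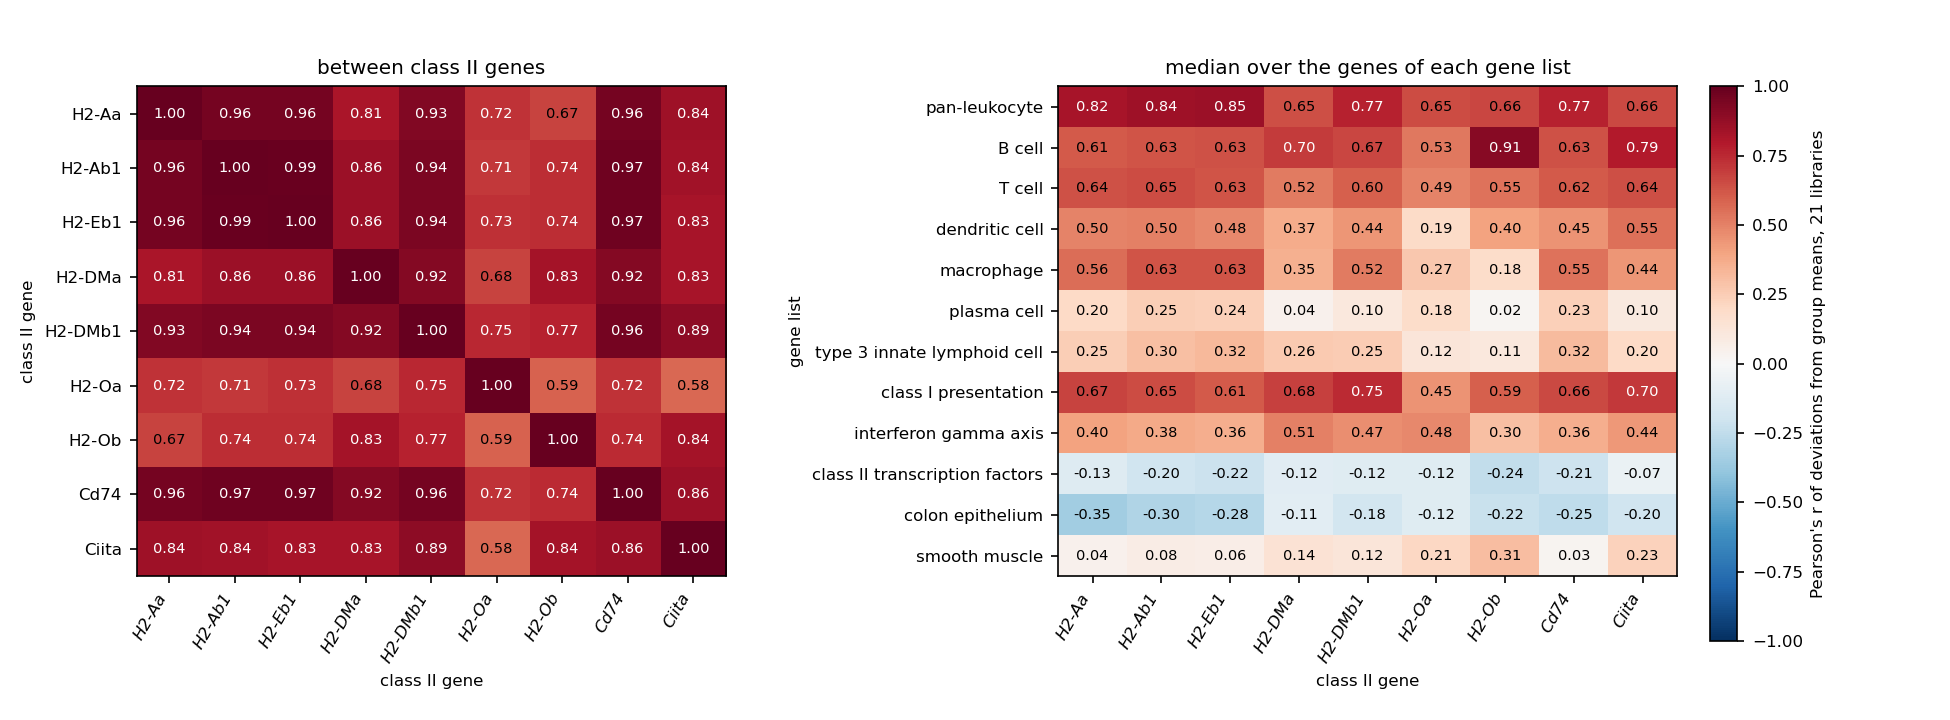
Pearson's r of within-group deviations of log2 CPM over 21 libraries, between the 9 genes (left) and as the median over each gene list (right), on a scale from -1 (blue) to 1 (red). The chains, Cd74 and H2-DMb1 form a dark block above 0.92, and H2-Ob has its highest median, 0.91, with B cell genes.

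With the 5 pan-leukocyte genes the chains and Cd74 had median r of 0.77 to 0.85. With 10 colon epithelial genes the medians of all 9 members were between -0.35 and -0.11, and with the 10 factors that bind or acetylate class II promoters between -0.24 and -0.07. Rfx5, the X box factor subunit, had an r of 0.53 with H2-Ab1.

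Ratios between members within a library do not depend on library scaling. H2-Ab1 counts divided by H2-Aa counts gave 0.268 to 0.322 in wild-type female normal colon and 0.552 to 1.02 in the other 18 libraries. Cd74 divided by H2-Aa gave 1.36 to 1.61 in that group and 2.41 to 4.03 elsewhere. H2-Eb1 divided by H2-Aa gave 0.486 to 0.564 in that group and 0.612 to 1.005 elsewhere. Cd74 divided by H2-Ab1, in contrast, was 4.78 to 5.15 there, inside the 3.26 to 5.51 of the others. H2-Aa was therefore less reduced than its partner chain in the group that is low for most members. H2-Aa transcripts have a GC content of 51.0%, H2-Eb1 51.8%, H2-Ab1 57.3% and Cd74 56.6%. H2-Eb1 is near H2-Aa in GC content, and its ratio to H2-Aa is lowest in wild-type female normal colon. H2-Eb1 and H2-Ab1 are further apart in GC content. H2-Eb1 divided by H2-Ab1 gave 1.64 to 1.99 in that group and 0.950 to 1.33 elsewhere. Wild-type female normal colon is the group with the lowest level of genes of high GC content. The part of base composition in these ratios was not tested.

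The inhibitor to editor ratio, H2-Oa plus H2-Ob counts over H2-DMa plus H2-DMb1 counts, was lower in tumours. Its median fell from 0.553 (0.349 to 0.911) in normal colon to 0.0351 (0.0167 to 0.0430) in tumours of wild-type females. In knock-in males it went from 0.416 (0.393 to 0.502) to 0.113 (0.0821 to 0.251), and in wild-type males from 0.322 (0.185 to 0.447) to 0.162 (0.104 to 0.163). In wild-type female tumours the ratios rest on 1, 4 and 4 counts of H2-O. Normal and tumour libraries did not overlap within any of the 3 settings, though in wild-type males they lay close, at 0.185 and 0.163. Knock-in female normal colon had a median of 0.591 (0.291 to 0.611). These ratios are given as a description without a test.

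**Figure D5:**
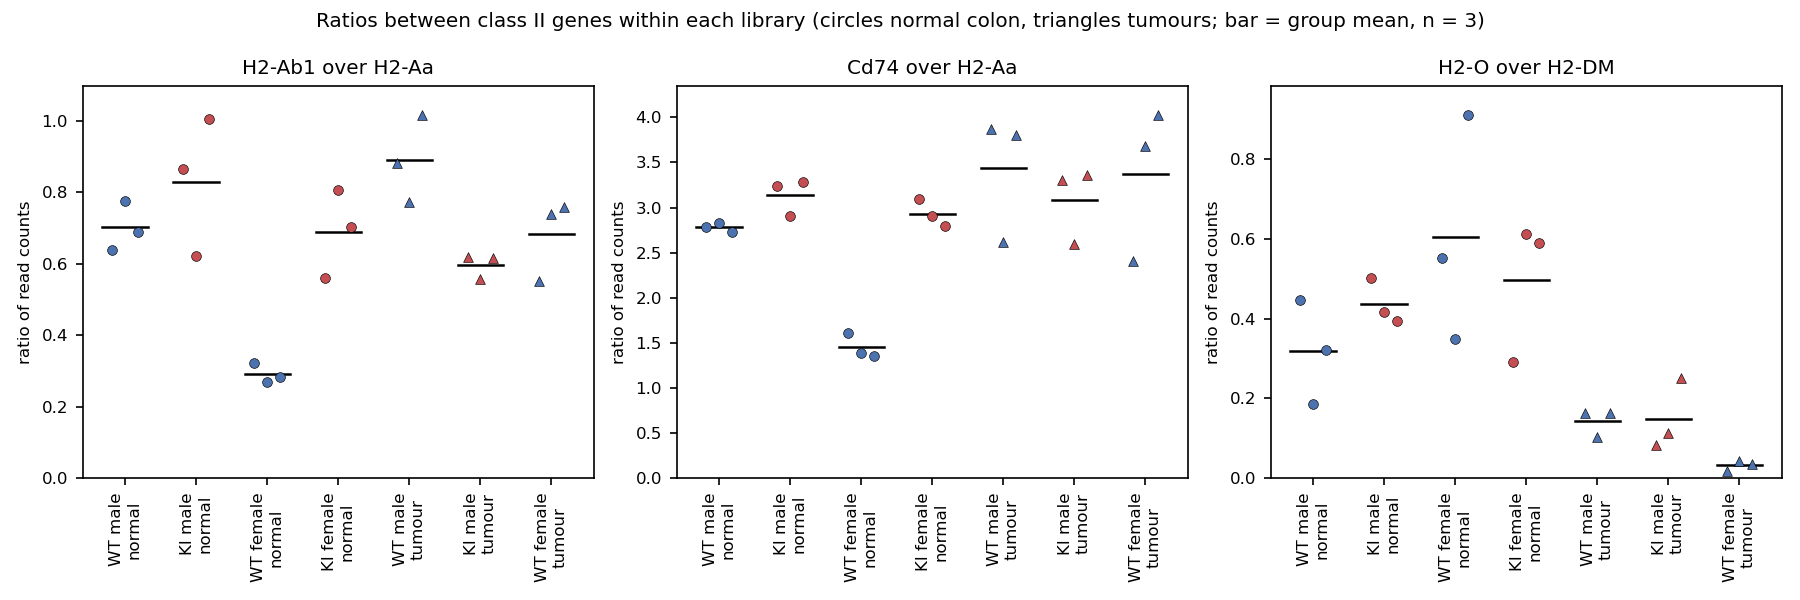
Ratios of read counts within each library for 3 pairs, on linear axes from 0, by group, with circles for normal colon, triangles for tumours and bars for the mean of 3 libraries. Wild-type female normal colon is alone below 0.33 for H2-Ab1 over H2-Aa and below 1.7 for Cd74 over H2-Aa, and for H2-O over H2-DM tumours are below normal colon of the same genotype and sex.

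Of the other genes of the class II region 2 were tested, and both were lower in knock-in male tumours, where 9.97% of all tested genes were lower. H2-DMb2, a second beta chain gene of H2-DM, fell by 2.27 log2 units in knock-in male tumours (edgeR adjusted p = 0.0194) and rose by 2.07 in knock-in against wild-type female normal colon (edgeR adjusted p = 0.0342). H2-Eb2, a further E beta gene, fell by 2.49 in knock-in male tumours (edgeR adjusted p = 0.0432) and by 4.15 in wild-type female tumours (edgeR adjusted p = 0.00894). H2-DMb1 and H2-DMb2 are closely related copies, and how shared reads were assigned between them is not given in the sources used here, so the split between them is uncertain. The RefSeq promoter window of H2-Eb2 held the X and Y pair, and that of H2-DMb2 the Y box without it.

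Of 14 measured genes that act on class II complexes in endosomes, 3 were higher and 4 lower in wild-type male tumours, 2 and 2 in knock-in male tumours, and 3 and 5 in wild-type female tumours. The shares of all tested genes called in these comparisons were 35.7%, 20.4% and 49.1%. Ctss, the protease that makes the last cuts in the invariant chain, averaged 186 CPM in normal colon and 97.7 CPM in tumours of wild-type males. It fell by 0.93 log2 units there (edgeR adjusted p = 0.000541), by 0.73 in knock-in males (0.00851) and by 1.54 in wild-type females (2.01e-06). Ifi30, the reductase that opens disulfide bonds of antigens, fell by 0.55, 0.58 and 0.79 log2 units in the same order (edgeR adjusted p = 0.00406, 0.00722 and 0.000104). Lgmn, an endosomal protease, rose by 0.91 in wild-type male (edgeR adjusted p = 0.000480) and by 1.03 in wild-type female tumours (6.71e-05).

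Of 10 promoter factors and coactivators, 1 was higher and 1 lower in wild-type male tumours, 2 and 1 in knock-in male tumours, and 2 and 2 in wild-type female tumours, beside 35.7%, 20.4% and 49.1% of all tested genes called. Rfx5 rose by 0.63 log2 units in wild-type male (edgeR adjusted p = 0.00976) and by 0.84 in wild-type female tumours (0.000752). Rfxank, another subunit of the same complex, fell by 1.03 in wild-type female (edgeR adjusted p = 0.000365) and by 0.63 in knock-in male tumours (0.0321). The median log2 difference of the 10 factors was 0.05 to 0.09 over the 3 comparisons.

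Along the interferon gamma axis, Ifng itself was at or under 3 counts in every library and listed at 0 in all libraries of 3 groups. Of 12 tested genes of the axis 1 was higher and 4 lower in wild-type male tumours, 1 and 1 in knock-in male tumours, and 0 and 4 in wild-type female tumours, beside the same 35.7%, 20.4% and 49.1% of all tested genes. Irf1, which acts on the interferon-responsive promoter of Ciita, fell by 0.59 log2 units in wild-type male (edgeR adjusted p = 0.0449) and by 1.15 in wild-type female tumours (0.000358). No gene of the axis passed between genotypes in normal colon of either sex, where 16.0% of all tested genes were called in females and 0.0126% in males.

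The authors' deposited table gives log2 fold changes and adjusted p-values for 8 of these pairs of groups. In it 6 of 9 members were under 0.05 for knock-in against wild-type female normal colon, namely the 5 named above and H2-DMb1 (log2 fold change 1.63, adjusted p = 0.0490). For knock-in male tumours the authors' deposited table has 2 members under it, Ciita (-1.51, adjusted p = 0.00821) and H2-Ab1 (-1.37, adjusted p = 0.0398), and 3 for male against female wild-type normal colon, namely H2-Ab1, H2-DMa and Cd74. For wild-type male against female tumours 1 of the 8 members with a value passed in the authors' deposited table, H2-Ob at 3.54 (adjusted p = 0.0338).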

How the data were processed

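Total RNA from colon was depleted of ribosomal RNA, reverse transcribed from random hexamers and read on a NovaSeq instrument, per the labels' protocols. The authors deposited raw read counts per gene made with featureCounts, per the file headers, and the submitters' processing notes name Trimmomatic, HISAT2, DESeq2 and build mm10. Gene annotation, strand setting and the treatment of shared reads are not given in the sources used here. A second table holds log2 fold changes and adjusted p-values that the authors deposited, with settings not given.

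Groups come from the sample titles. Duplicate column headers left 2 knock-in female normal libraries unnumbered, and they are called a and b. Counts were tested with edgeR 4.0.16 (R 4.3.3), quasi-likelihood F test, two-sided, TMM scaling, filterByExpr and 1 coefficient per group, in a single fit of all 21 libraries for 9 pairs of groups and 3 interactions. Adjusted p-values are Benjamini-Hochberg over 15936 genes at 0.05. CPM use scaled library sizes, deviations log2 CPM with a prior count of 2, and lengths and GC content the longest coding transcript. All 9 genes are named throughout, and likeness uses the 5 nearest genes with a mean of at least 50 counts. A few genes of the lists are not reported here by name. The members and lists were chosen with earlier results of these data known.

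Simulated data with 200 changed genes among 15936 in the comparison of knock-in and wild-type female normal colon gave 65.5% recovery (47% at 1 log2 unit, 84% at 2), 8 false calls and 0 wrong signs. Alternatives were other scalings, filters, DESeq2 1.42.0, limma 3.58.1 voom, compared groups alone, a replicate block on 18 libraries, the libraries numbered 152 to 154 as a covariate, single libraries left out and, added after the data were seen, an offset for GC content and length. Same-numbered libraries deviated together (r over 0.1 in every pair) in wild-type male tumour and normal colon, with r of 0.169, 0.174 and 0.215. The numbers come from the labels, which do not say what they share.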

Additional observations from a re-analysis of the deposited data

How the results depend on the processing

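The shares of all tested genes called under the alternatives are not given here, so the counts below have no background beside them. The number of the 9 members called moved with the processing in 5 comparisons. For knock-in male tumours against normal colon it was 1, and it became 0 with no low-count filter, with limma voom, with only the compared groups or with the GC and length offset, 2 with DESeq2's Wald test or the replicate block, and 5 with the late library numbers as a covariate. Leaving out single libraries gave 0 to 6, with 6 without knock-in male tumour replicate 3 and 0 without knock-in male normal replicate 2 or 3 or tumour replicate 1 or 2. For wild-type female tumours against normal colon the count of 1 became 2 with only the compared groups or the late-number covariate, and stayed at 1 whichever library was left out. For knock-in against wild-type female normal colon the count of 5 became 3 with no low-count filter or with the GC and length offset, 2 with only the compared groups and 6 with the Wald test (H2-DMb1, adjusted p = 0.0469). Without single libraries it was 2 to 5, and it was 2 without wild-type replicate 1 or 2 or knock-in replicate 1 or a. For female against male wild-type tumours the count of 0 became 1 with the Wald test, limma voom or the covariate and 6 with only the compared groups. For female against male wild-type normal colon the count of 2 became 4 with limma voom, 3 with the Wald test or only the compared groups (Cd74) and 0 with the GC and length offset, alone or with the replicate block. It was 0 to 2 without single libraries, with 0 without female replicate 1 or 2 or male replicate 1 or 2 and 1 without female replicate 3. In wild-type male tumours, where same-numbered libraries deviated together weakly, the replicate block left 0 members called. No paired analysis was possible because of the unnumbered libraries where knock-in females enter. In every comparison the block rests on a shared number alone. Library totals moved the median of all genes by 0.14 log2 units in wild-type female tumours, and the GC and length offset moved it by 0.11 in female against male wild-type normal colon. The share of higher genes among all called genes was 56.1% between genotypes in female normal colon, 72.8% with library totals and 34.0% with the offset. In female against male wild-type normal colon it was 36.1%, 21.4% and 59.98%, and in wild-type female tumours 51.0%, 62.1% and 49.9%. No called member reversed under any alternative run. Depth limits H2-Oa and H2-Ob most, since both were at or under 3 counts in every wild-type female tumour.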

Other observations

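Genes of the class I pathway, which presents peptides from inside the cell, were set beside the class II genes. Of 14 measured class I genes 4 were lower in wild-type female tumours, 3 in knock-in male and 1 in wild-type male tumours, and 0 were higher in any of these by edgeR, beside 24.0%, 9.97% and 19.3% of all tested genes lower. H2-K1, a class I heavy chain, fell by 0.93 log2 units in wild-type female tumours (edgeR adjusted p = 0.00770). Nlrc5, the class I coactivator, did not pass in any of the 9 comparisons of pairs of groups. The median r of within-group deviations between class I genes and the class II members was 0.45 for H2-Oa and between 0.59 and 0.75 for the others.

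Of 6 costimulatory genes, whose products act on T cells or antigen-presenting cells beside the class II complex, 2 were higher and 1 lower in wild-type female tumours, where 49.1% of all tested genes were called. Cd80 rose by 1.74 log2 units (edgeR adjusted p = 0.00454) and Cd40 by 1.62 (0.0134), and Icosl fell by 0.91 (0.00184). Of 4 tested genes of type 3 innate lymphoid cells, which can carry class II molecules in the gut, 2 were lower in each of the 3 tumour comparisons. The shares of all tested genes lower were 19.3% in wild-type male, 9.97% in knock-in male and 24.0% in wild-type female tumours.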
